A study of Homo sapiens with 12 samples.

Results

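The genes described here mostly encode the machinery that starts and drives RNA polymerase II transcription. They cover the 12 subunits of the polymerase, the Mediator complex, TFIID, the other general transcription factors, and elongation kinases, cyclins and SPT factors. They were taken by symbol, as every POLR2A to POLR2L, every MED number, every TAF number and every GTF2A to GTF2H name, plus TBP, CDK7, CDK8, CDK9, CDK12, CDK13, CCNT1, CCNT2, SUPT5H and SUPT6H. This gave 92 genes of 27827 named genes. The study treated U937, a human pro-monocytic leukaemia line, with a monoclonal antibody labelled as an antagonist of LILRB3, with one labelled as an agonist, or with nonspecific IgG. LILRB3 is an inhibitory receptor of the leukocyte immunoglobulin-like receptor family that is found on myeloid cells. All groups shared a pretreatment with 50 ng/mL interferon gamma, and antibodies were left on for 72 h at a concentration the labels write as 5 mg/mL. There were 4 groups of 3 libraries: antagonist with its own IgG, and agonist with a separate IgG. One cell line was used, and nothing in the labels says whether the 3 libraries of a group came from separate cultures, so the p-values speak for the spread among those libraries alone.

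RNA polymerase II makes the messenger RNAs of nuclear genes. TFIID, built from TBP and its associated factors (TAFs), binds the core promoter; TFIIA, TFIIB, TFIIE, TFIIF and TFIIH then complete the initiation complex, and TFIIH opens the DNA and phosphorylates the tail of the largest polymerase subunit through CDK7. Mediator passes signals from activators to this complex through its tail, middle and head modules, and a detachable kinase module holds CDK8 with MED12 and MED13. CDK9 with a T-type cyclin releases paused polymerase, and CDK12 and CDK13 act later along the gene body.

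The antagonist table counted reads over nearly all genes, with 17035334 to 17771980 counts in antagonist libraries and 17142362 to 18820312 in IgG libraries. The agonist table lists only 904 genes, all but 1 of which passed the test, and its libraries hold 3135972 to 3522203 counts (agonist) and 2764479 to 3321678 counts (IgG). Library 1 of the IgG group run with the antagonist stood apart from its replicates (chi-square per degree of freedom 11.0 and 19.9, against 4.54 between the other two), and so did library 1 of the agonist group (25.1 and 26.7, against 3.75). Libraries are numbered here only to name them. The summed level of 12 myeloid markers ran from 5853 to 6247 CPM (counts scaled to the same library total) in antagonist libraries and 6154 to 7039 CPM in IgG libraries. MS4A1, HBB, EPCAM and KLRD1, markers of other cell types, had no count in any of these 6 libraries. Several genes that interferon gamma usually induces were at or near 0: IDO1 had no count, HLA-DRA had 1 count in antagonist and 2 in IgG libraries, and GBP1 had 2 in each group.

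Of the 92 genes, 90 passed the filter on low counts in the antagonist table. Against IgG, 13 were higher and 28 were lower with the antagonist at an adjusted p under 0.05, by edgeR's quasi-likelihood test with Benjamini-Hochberg adjustment over all 13778 genes tested. Among all tested genes 36.1% were called, 15.6% higher and 20.5% lower, against 45.6% of the 90 members. The median log2 fold change of the members was -0.05, and that of all tested genes -0.01. The groups did not overlap, every antagonist library above or below every IgG library, in 17 members that were higher and 32 that were lower, against 49% of all tested genes (21.9% higher, 27.1% lower). No member moved by 2-fold, and the median size among called members was 0.33 on the log2 scale, against 0.35 among all called genes. By role, 7 of 12 polymerase subunits and 6 of 7 genes of TFIIA, TFIIB, TFIIE and TFIIF were lower, while all 6 calls in the tail and kinase modules of Mediator were higher. With trends in transcript length and GC content removed, the tail gave 1 higher and 1 lower call and the kinase module 1 higher and none lower. This setting used trends fitted on library totals together with the TMM factors, so the overall shift between libraries was removed again. The median log2 change of all tested genes moved from -0.01 to -0.09. Calls lost, kept or gained in this setting, here and below, therefore reflect that shift as well as length and GC. The count of lower calls depended on the scaling: with library totals in place of TMM factors the members split into 17 higher and 11 lower. It also depended on single libraries. Lower calls numbered 15 without antagonist library 1, 12 without antagonist library 3 and 17 without IgG library 2, and higher calls numbered 8 without antagonist library 2 and 7 without antagonist library 3. Across all 12 alternatives no called member was called in the opposite direction, and 12 kept their call in each one: POLR2A, MED12, MED22 and CDK12 among the higher ones, and POLR2F, POLR2G, POLR2L, MED20, TAF10, GTF2A2, GTF2F2 and CDK7 among the lower ones.

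**Figure D1:**
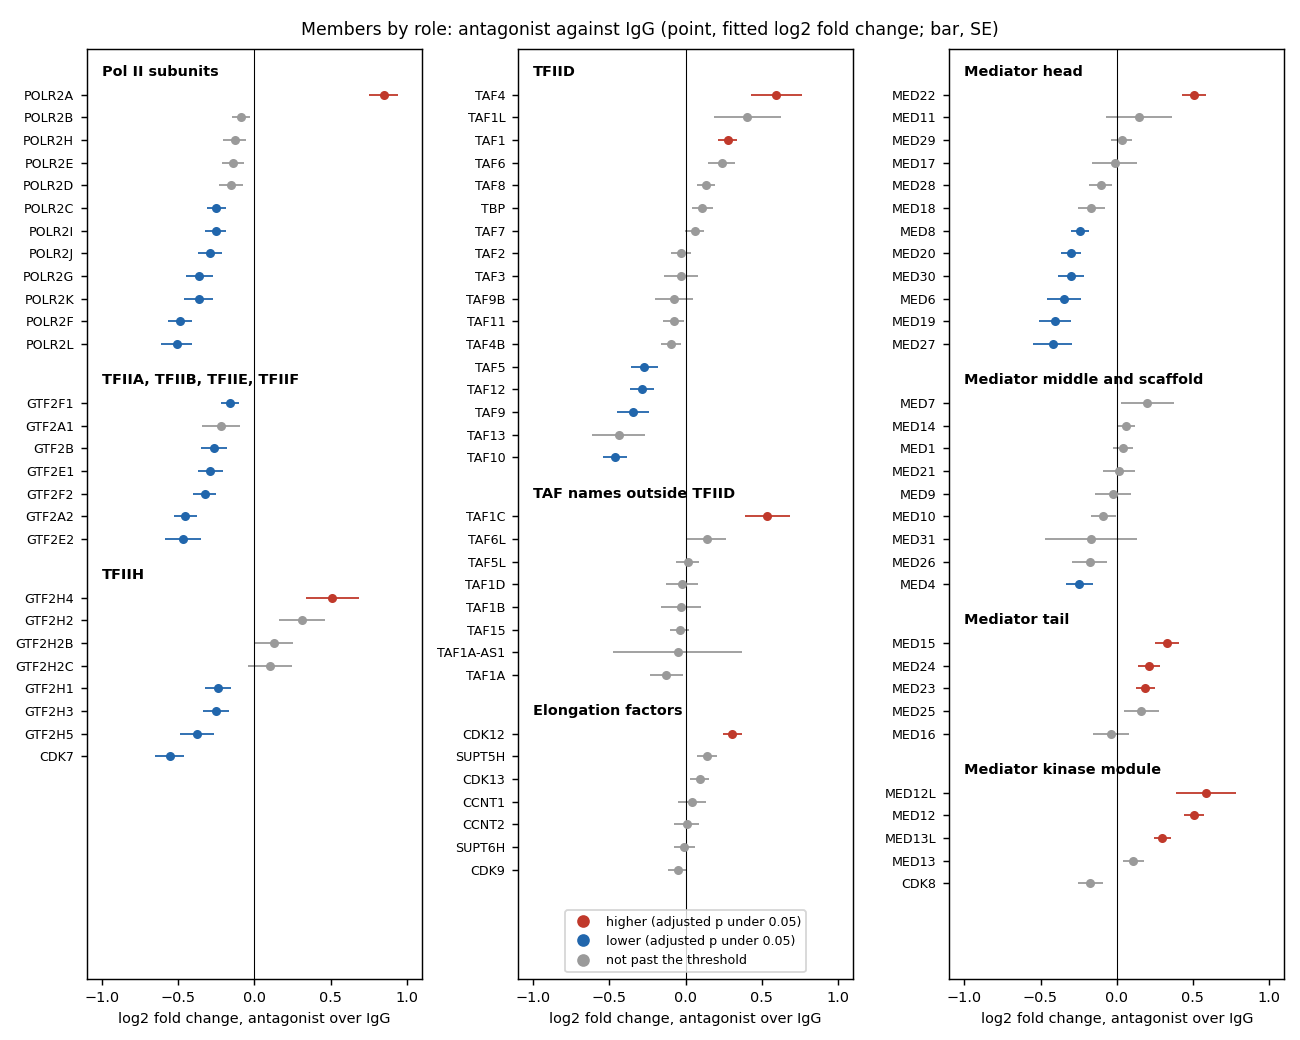
Log2 fold change of the 90 tested members, antagonist over IgG, sorted within each role (point, fitted value; bar, SE; 3 libraries a group; red, higher; blue, lower; grey, not past an adjusted p of 0.05). POLR2A at 0.85 is the only polymerase subunit right of 0, and the tail and kinase modules of Mediator lie mostly to the right.

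POLR2A, the largest subunit and the one that carries the catalytic site and the C-terminal repeat tail, rose. Its level was 25.5, 27.5 and 23.7 CPM in antagonist libraries, against 13.0, 14.8 and 14.9 CPM in IgG libraries. The groups did not overlap, and the log2 fold change was 0.85 ± 0.09 (SE; adjusted p = 0.000159). With trends in transcript length and GC content taken out of the counts it was 0.51. Per kilobase of transcript, POLR2A was the lowest of the 12 subunits in both groups, at 3.79 ± 0.28 CPM per kb with the antagonist and 2.11 ± 0.15 CPM per kb with IgG (SD, n = 3 each). The next lowest, POLR2D, had 8.22 ± 0.78 CPM per kb with the antagonist and 9.13 ± 0.37 CPM per kb with IgG. The highest, POLR2E, had 95.0 ± 2.0 CPM per kb with the antagonist and 105 ± 11 CPM per kb with IgG. This ranking covers the antagonist table alone. Over shared genes, the level of POLR2A in IgG libraries was 14.7 times higher in the agonist experiment, as given below.

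The other 11 polymerase subunits all had log2 fold changes below 0, also with DESeq2 size factors, with library totals and with length and GC trends removed. The last of these settings also moved all tested genes down (median -0.09). Among these 11 subunits 7 fell (4 with library totals, and 4 without antagonist library 1). POLR2L, a small subunit shared by all 3 nuclear polymerases, had 18.2, 20.5 and 21.0 CPM with the antagonist and 32.5, 26.4 and 26.0 CPM with IgG, a log2 change of -0.51 ± 0.10 (adjusted p = 0.00251). POLR2F, also shared by the 3 polymerases, had 32.0, 33.0 and 37.9 CPM with the antagonist and 50.0, 46.7 and 47.6 CPM with IgG, a log2 change of -0.49 ± 0.08 (adjusted p = 0.00076). In both genes every antagonist library lay below every IgG library. POLR2G, part of the stalk near the RNA exit, had 42.3, 40.8 and 40.5 CPM with the antagonist and 60.1, 46.1 and 52.6 CPM with IgG. Its log2 change was -0.36 ± 0.09 (adjusted p = 0.00739), and IgG library 1 was the highest of the 6. POLR2K, the third shared small subunit to fall, had a log2 change of -0.36 ± 0.10 (adjusted p = 0.0109). Its call was lost without antagonist library 1 (-0.33) or 3 (-0.30), and with length and GC trends removed (-0.10). POLR2J (-0.29), POLR2I (-0.25) and POLR2C (-0.25) also fell, with calls that held in 9, 10 and 9 of the 12 alternatives, although 33.5% of the 50-base windows of POLR2J occur in transcripts of other genes, POLR2J3 foremost. POLR2B, the second-largest subunit, had 90.4, 91.0 and 87.3 CPM with the antagonist and 97.8, 91.2 and 97.1 CPM with IgG. Its groups did not overlap, by a narrow margin, and it did not pass the test (-0.09 ± 0.06, adjusted p = 0.246).

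**Figure D2:**
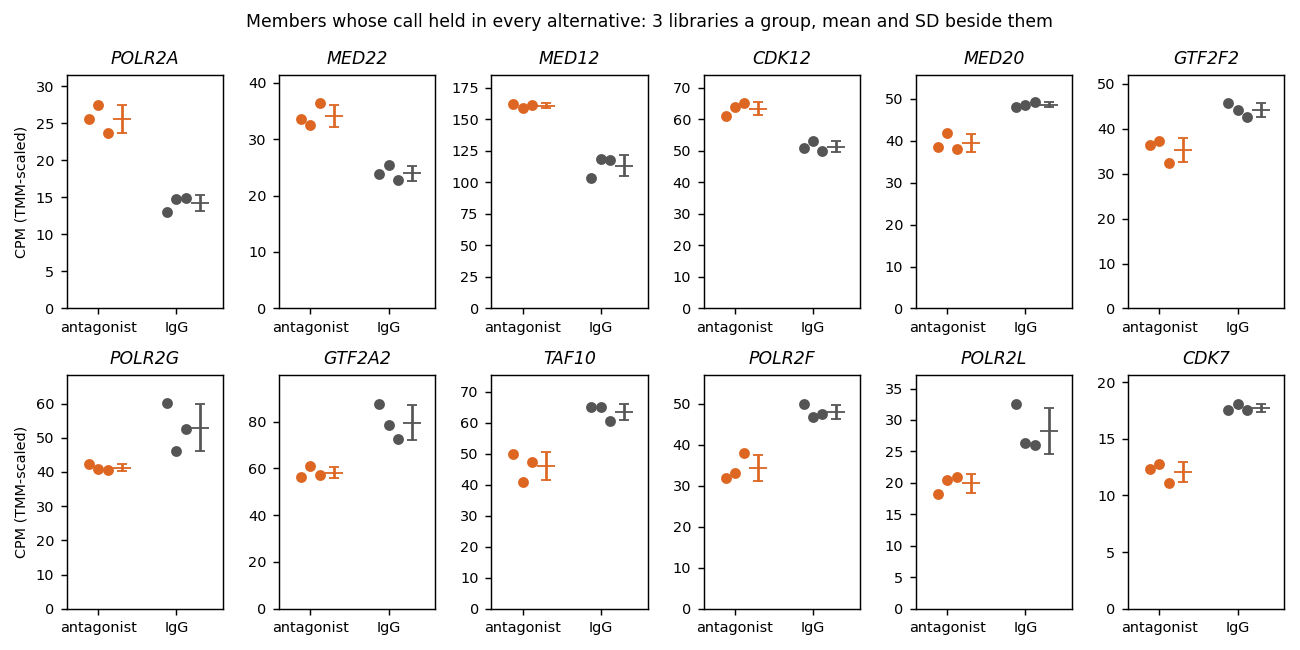
Level in TMM-scaled CPM of the 12 members whose call held in every alternative tried, antagonist libraries at left and IgG libraries at right in each panel (points, 3 libraries; bar, mean and SD). In each panel the groups do not overlap; POLR2A spans 23.7 to 27.5 CPM with the antagonist and 13.0 to 14.9 CPM with IgG.

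The factors that join the polymerase at the promoter moved mostly down. All 7 tested genes of TFIIA, TFIIB, TFIIE and TFIIF had a log2 change below 0, with a median of -0.29, and 6 fell; with library totals 3 did. GTF2A2, the small subunit of TFIIA, had 56.3, 60.9 and 57.3 CPM with the antagonist and 87.7, 78.6 and 72.5 CPM with IgG (-0.45 ± 0.08, adjusted p = 0.000934). GTF2F2, the smaller subunit of TFIIF, had 36.3, 37.3 and 32.3 CPM with the antagonist and 45.8, 44.2 and 42.5 CPM with IgG (-0.33 ± 0.08, adjusted p = 0.00554). Neither gene's groups overlapped. Both subunits of TFIIE fell. GTF2E2 had a log2 change of -0.47 ± 0.12 (adjusted p = 0.00896), a call lost without antagonist library 1 (-0.39). GTF2E1 had one of -0.29 ± 0.08 (adjusted p = 0.0158), a call lost without antagonist library 3 (-0.25) or IgG library 3 (-0.26). The call of GTF2E1 was also lost with library totals (-0.21). GTF2B, the single subunit of TFIIB, changed by -0.26 ± 0.08 (adjusted p = 0.0287) and GTF2F1 by -0.16 ± 0.06 (adjusted p = 0.0493), and these calls held in 5 and 2 of the 12 alternatives. GTF2A1L, a relative of the large TFIIA subunit, had no count in any library; a count of 0 allows up to 3.69 counts in a group (exact 95% Poisson interval, counting error only).

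In TFIIH the lead was CDK7, the kinase of the complex, which fell. It had 12.3, 12.8 and 11.1 CPM with the antagonist and 17.6, 18.1 and 17.5 CPM with IgG, with no overlap and a log2 change of -0.55 ± 0.10 (adjusted p = 0.00112). MNAT1, which joins CDK7 and cyclin H into an active kinase, also fell (-0.50 ± 0.13, adjusted p = 0.0107; -0.45 and no longer called without antagonist library 3). GTF2H5, the smallest core subunit, had 27.3, 26.6 and 26.3 CPM with the antagonist and 42.1, 32.7 and 29.2 CPM with IgG (-0.38 ± 0.11, adjusted p = 0.0227). IgG library 1 was the highest here. The call was lost without it (-0.18), without antagonist library 1 (-0.39), 2 (-0.38) or 3 (-0.36), and with library totals (-0.30). GTF2H3 (-0.25) and GTF2H1 (-0.24) fell with calls that held in 3 and 2 of the 12 alternatives. That of GTF2H3 was lost without antagonist library 1 (-0.28) or 3 (-0.18) or IgG library 1 (-0.22) or 2 (-0.19). GTF2H4 rose (0.51 ± 0.17, adjusted p = 0.0351), but 93.7% of its windows also lie in transcripts of other genes, VARS2 foremost. Its call was lost without antagonist library 1 (0.55), 2 (0.39) or 3 (0.58) or IgG library 2 (0.46) or 3 (0.47). It was also lost in DESeq2's own test (0.53). The near-identical copies GTF2H2, GTF2H2B and GTF2H2C share 89.0% to 96.9% of their windows, so reads cannot be assigned among them with certainty; none passed the test.

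TFIID was split. Of its 17 tested genes 2 rose, 4 fell and 11 did not pass the test, with a median log2 change of -0.03 (0.05 with library totals, where 4 rose and 1 fell). Higher calls numbered 1 without antagonist library 2 or 3 and 4 without IgG library 1, and lower calls 2 without antagonist library 1 or IgG library 2 and 1 without antagonist library 3. TBP, which binds the TATA element, had 39.0, 42.2 and 42.6 CPM with the antagonist and 38.6, 38.0 and 38.3 CPM with IgG. The 3 antagonist values lay above the 3 IgG values, but by too little to pass (0.11 ± 0.07, adjusted p = 0.228). With length and GC trends removed it passed (0.19, adjusted p = 0.017). TAF1, the largest TAF and a scaffold of the complex, rose, at 134, 133 and 132 CPM with the antagonist and 109, 117 and 102 CPM with IgG (0.28 ± 0.06, adjusted p = 0.00467). With length and GC trends removed its value was 0.10 and the call was lost. TAF4, a histone-fold scaffold TAF, rose with more spread, at 72.4, 75.4 and 86.8 CPM with the antagonist and 39.0, 53.0 and 63.6 CPM with IgG (0.60 ± 0.17, adjusted p = 0.0302). Its call was lost without antagonist library 2 (0.62) or 3 (0.51) and with length and GC trends removed (0.33).

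TAF10, a histone-fold protein that TFIID shares with the SAGA coactivator, fell to 49.8, 41.0 and 47.2 CPM with the antagonist, against 64.9, 65.1 and 60.5 CPM with IgG (-0.47 ± 0.08, adjusted p = 0.00096). The groups did not overlap, though 31.4% of its windows are shared with another annotated transcript. TAF9 (-0.34 ± 0.10, adjusted p = 0.022) and TAF12 (-0.29 ± 0.08, adjusted p = 0.0132), both also found in SAGA, fell as well. Both calls were lost without antagonist library 1 (-0.34 for TAF9, -0.26 for TAF12) or 3 (-0.25 and -0.29). Both were also lost with library totals (-0.26 and -0.21) and with length and GC trends removed (-0.20 and -0.15). That of TAF12 was lost without IgG library 2 as well (-0.27). Of the 50-base windows, 31.0% in TAF9 are shared, mainly with AK6. TAF5, the WD-repeat subunit, fell by 0.27 on the log2 scale, a call that held in 6 of the 12 alternatives. TAF7L, a relative of TAF7 known from the testis, stayed below the filter with 3, 8 and 4 counts in antagonist libraries (15 in all, exact 95% Poisson interval 8.40 to 24.7) and 7, 7 and 2 counts in IgG libraries (16 in all, 9.15 to 26.0). Of the 8 genes with TAF names outside TFIID, TAF1C passed the test and the other 7 did not. TAF1C, a subunit of the RNA polymerase I factor SL1, rose, at 174, 160 and 184 CPM with the antagonist and 95.3, 116 and 147 CPM with IgG (0.54 ± 0.15, adjusted p = 0.0247). IgG library 1 was the lowest for both TAF1C and TAF4. The call of TAF1C was lost without antagonist library 1 (0.53) or 3 (0.49) and with length and GC trends removed (0.26).

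Mediator as a whole had as many rises as falls, 7 and 7 of 31 tested genes, and a median log2 change of -0.01. This balance depended on the scaling, with 7 rises and 2 falls (median 0.07) with library totals and 4 rises and 7 falls (median -0.05) with length and GC trends removed. Rises numbered 4 without antagonist library 2 or 3, and falls 4 without antagonist library 2 or IgG library 2 and 2 without antagonist library 3. In the kinase module 3 of 5 rose and none fell. MED12, which activates CDK8, had 162, 159 and 161 CPM with the antagonist and 104, 118 and 118 CPM with IgG, with no overlap (0.51 ± 0.06, adjusted p = 0.000254; 0.20 with length and GC trends removed, still called). MED13L, which links the kinase module to core Mediator, had 161, 166 and 163 CPM with the antagonist and 140, 131 and 127 CPM with IgG (0.30 ± 0.06, adjusted p = 0.00202). With length and GC trends removed its value was 0.02 and the call was lost. MED12L, the paralog of MED12, was low, at 3.43, 4.25 and 4.08 CPM with the antagonist and 2.69, 2.08 and 3.06 CPM with IgG (0.59 ± 0.20, adjusted p = 0.033). Its call was lost without antagonist library 2 (0.52) or 3 (0.56) or IgG library 2 (0.47). It was also lost with length and GC trends removed (0.39) and in DESeq2's own test (0.60). MED13 (0.11 ± 0.07, adjusted p = 0.243) and CDK8 itself (-0.17 ± 0.08, adjusted p = 0.11) did not pass, though MED13 did without IgG library 1 (0.19, adjusted p = 0.032). CCNC, the cyclin that partners CDK8, fell (-0.38 ± 0.08, adjusted p = 0.0048).

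The tail module, which contacts activators, also gave 3 rises of 5 and no fall. MED15 had 169, 172 and 173 CPM with the antagonist and 118, 140 and 151 CPM with IgG (0.33 ± 0.08, adjusted p = 0.00707), with IgG library 1 lowest. With length and GC trends removed its value was 0.10 and the call was lost. MED24 (0.21 ± 0.07, adjusted p = 0.0327) and MED23 (0.19 ± 0.06, adjusted p = 0.0341) rose by less. The call of MED24 was lost without antagonist library 1 (0.22), 2 (0.23) or 3 (0.19), and with length and GC trends removed (0.02). That of MED23 was lost without antagonist library 1 (0.20), 2 (0.15) or 3 (0.21) or IgG library 2 (0.21) or 3 (0.16). It was also lost with no filter on low counts (0.18).

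The head module, which contacts the polymerase, went the other way, with 6 of 12 genes lower and 1 higher (2 lower and 1 higher with library totals). MED20 had 38.6, 41.9 and 38.1 CPM with the antagonist and 48.0, 48.6 and 49.2 CPM with IgG (-0.30 ± 0.07, adjusted p = 0.0047). MED27 (-0.42 ± 0.13, adjusted p = 0.0241), MED19 (-0.41 ± 0.10, adjusted p = 0.01) and MED6 (-0.34 ± 0.11, adjusted p = 0.0289) changed by more but at lower levels and with more error. The call of MED19 was lost without antagonist library 3 (-0.36). That of MED27 was lost without antagonist library 2 or 3 (-0.38 each) or IgG library 1 (-0.36) or 2 (-0.40). That of MED6 was lost without antagonist library 1 (-0.37), 2 (-0.35) or 3 (-0.32) or IgG library 1 (-0.18). Both were also lost with library totals (-0.34 for MED27, -0.265 for MED6) and in DESeq2's own test (-0.41 and -0.33). With length and GC trends removed the call of MED6 was lost too (-0.19). In MED27 34.9% of the windows are shared, mainly with the pseudogene CRSP8P. MED30 (-0.30) and MED8 (-0.24) fell too, with calls that held in 7 and 11 of the 12 alternatives. MED28 did not pass (-0.10 ± 0.07, adjusted p = 0.294), but did with length and GC trends removed (-0.32, adjusted p = 0.000235). MED22 was the exception and rose, at 33.5, 32.4 and 36.3 CPM with the antagonist and 23.8, 25.4 and 22.7 CPM with IgG, without overlap (0.51 ± 0.08, adjusted p = 0.000711; 0.24 and still called with length and GC trends removed).

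Among the 9 genes of the middle module and its scaffold 1 passed the test, MED4 (-0.25 ± 0.09, adjusted p = 0.0445). That call held in 2 of the 12 alternatives, and was lost without antagonist library 1 (-0.25), 2 (-0.20) or 3 (-0.29) or IgG library 1 (-0.13) or 2 (-0.27). MED1, the subunit that nuclear receptors bind, had 62.0, 63.1 and 60.0 CPM with the antagonist and 62.9, 59.4 and 57.5 CPM with IgG, which overlap (0.04 ± 0.06, adjusted p = 0.642). MED14, the backbone of the complex, did not pass either (0.06 ± 0.06, adjusted p = 0.392).

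Of the 7 elongation genes, CDK12 passed the test and 6 did not. CDK12, which phosphorylates the polymerase tail within gene bodies, had 61.1, 64.1 and 65.1 CPM with the antagonist and 51.0, 53.1 and 49.9 CPM with IgG. These groups did not overlap (0.31 ± 0.06, adjusted p = 0.00283; 0.14 and still called with length and GC trends removed). CCNK, the cyclin of CDK12 and CDK13, rose as well (0.36 ± 0.07, adjusted p = 0.00312). CDK13 had a log2 change of 0.09 ± 0.06 (adjusted p = 0.29). CDK9 had 81.0, 81.6 and 85.1 CPM with the antagonist and 83.1, 83.1 and 90.4 CPM with IgG (-0.05 ± 0.06, adjusted p = 0.543). Its cyclins CCNT1 (0.04 ± 0.09) and CCNT2 (0.01 ± 0.08), the pausing and elongation factor SUPT5H (0.14 ± 0.07) and the histone chaperone SUPT6H (-0.01 ± 0.07) did not pass either. In other settings some of the 6 did. With length and GC trends removed SUPT6H (-0.29, adjusted p = 8.7e-06) and CDK9 (-0.13, adjusted p = 0.036) were lower. That setting also moved all tested genes down (median log2 change -0.09, against -0.01 in the main fit). With library totals SUPT5H (0.22, adjusted p = 0.017) and CDK13 (0.17, adjusted p = 0.049) were higher.

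Partners and neighbours of these genes also moved both ways. Of 95 tested genes in 7 such lists, 13 were higher and 34 lower (49.5%, median log2 change -0.14). Among all tested genes 36.1% were called, 15.6% higher and 20.5% lower, with a median of -0.01. By list the share called ran from 33.3% (phosphatases and readers of the polymerase tail) to 90% (polymerase assembly and TBP regulation). It was 35.7% for Integrator. Among genes of pausing and the 7SK particle, which holds CDK9 inactive, 1 of 10 rose and 3 fell. SUPT4H1, the partner of SUPT5H, fell (-0.47 ± 0.09, adjusted p = 0.00169), and so did LARP7, a protein of the 7SK particle (-0.35 ± 0.09, adjusted p = 0.00966). In the wider elongation list 2 of 21 rose, AFF1 (0.41) and ELL (0.33), which belong to super elongation complexes, and 9 fell, with ELL2 (-0.83) and EAF2 (-0.48) at the head.

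In the list for polymerase assembly and TBP regulation, in which POLR2M was also placed, 3 of 10 genes rose and 6 fell. BTAF1, which removes TBP from DNA, rose (0.39 ± 0.07, adjusted p = 0.00142), as did the assembly GTPase GPN2 (0.37), while POLR2M (-0.59) and GPN3 (-0.46) fell. Of 12 genes for phosphatases and readers of the polymerase tail, 2 rose, SCAF4 (0.26) and PCF11 (0.25), and 2 fell, SSU72 (-0.25) and CTDSP1 (-0.22). In Integrator, the complex that cleaves nascent RNA, 1 of 14 rose, INTS3 (0.49 ± 0.06, adjusted p = 0.000301), and 4 fell, with INTS13 (-0.40) and INTS5 (-0.31) among them. Subunits that belong to RNA polymerases I and III alone gave 1 rise, POLR3E (0.22), and 7 falls of 19, POLR3GL (-0.40) among them. Of 9 kinase partners and remaining TFIIH genes 3 rose and 3 fell; ERCC3, the helicase of TFIIH that opens the promoter, was among the rises (0.20). The calls of ELL, LARP7, POLR2M, PCF11, CTDSP1, INTS5, POLR3E and ERCC3 were each lost when at least 1 of the 6 libraries was left out, with values from -0.60 to 0.31. Those of ELL (0.06) and POLR3E (0.11) were also lost with length and GC trends removed. With library totals CTDSP1 (-0.14) and INTS5 (-0.23) were no longer called.

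Members differed in transcript length, and the shortest and longest had opposite balances of calls. Of the 30 shortest transcripts (813 to 1995 nt in GENCODE 29) 1 was higher and 17 were lower, with a median log2 change of -0.28. Of the 30 of middle length (2022 to 3653 nt) 2 were higher and 10 lower, and of the 30 longest (3742 to 14615 nt) 10 were higher and 1 lower, with a median of 0.08. All other tested genes leaned the same way: among 2904 genes in the shortest range 217 were higher and 1011 lower, and among 5022 genes in the longest range 1113 were higher and 578 lower. Spearman's rho between log2 change and length was 0.56 over the 90 members and 0.24 over 13361 tested genes with a length; these genes share the same 6 libraries and are not independent. With smooth trends in length and GC content removed over all genes, the counts were 4 higher and 12 lower among the shortest members, 2 and 11 in the middle, and 5 and 5 among the longest, and rho fell to 0.19. The 90 members then totalled 11 higher and 28 lower calls, with a median log2 change of -0.08. All 13778 tested genes then gave 1615 higher and 4291 lower calls, with a median of -0.09. Because the overall shift between libraries was removed again in this setting, these counts and medians mix that shift with length and GC. The part of transcript length in the results above was not tested beyond these values.

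**Figure D3:**
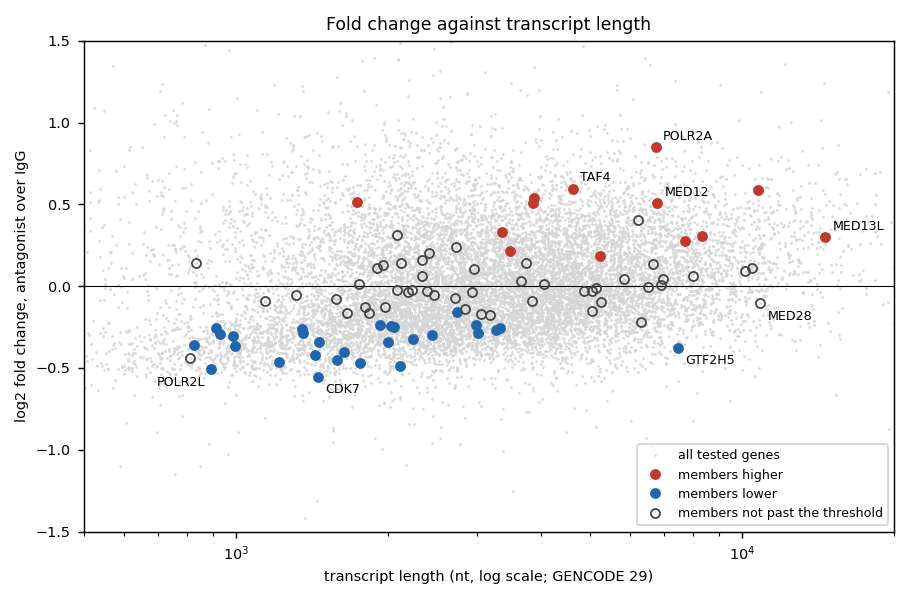
Log2 fold change, antagonist over IgG, against transcript length in nucleotides (log axis) for all tested genes (light grey) and the members (red, higher; blue, lower; open, not past the threshold); genes beyond the drawn axes are left out. Higher members lie mainly at the right, where 10 of the 30 longest transcripts were higher, and lower members mainly at the left, where 17 of the 30 shortest were lower.

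Promoter sequence was also read for the members. RefSeq (GRCh38.p14) gave the 250 bases before the start for 74 of the 92 members, and 6 motifs were searched in them on both strands, with overlapping matches allowed. The core of ETS-family sites, CCGGAAG, stood in 22 of these 74 promoters (29.7%), against 15.7% of 10555 promoters of tested genes and 8.52% of all 35116 promoters in the table. It was in 7 of 20 promoters of members that fell (35.0%, near the 29.7% of all 74) and 2 of 12 of members that rose (16.7%). The falling members with it were GTF2A2, GTF2F1, GTF2H1, GTF2H3, POLR2C, POLR2F and TAF12. The YY1 core AAGATGGCG was in 4 members (5.41%, against 1.06% of tested genes). The GC box GGGCGG (58.1%, against 66.0%), CCAAT (29.7%, against 34.8%), TATAAA (5.41%, against 5.47%) and the NRF1 core GCATGCGC (4.05%, against 4.80%) were in shares closer to those of tested genes. CCAAT stood in 6 of 12 members that rose and 3 of 20 that fell. These counts are small, and a link between any motif and the direction of change was not tested. A match describes these letters and is not a bound site. Printed 5′ to 3′ on the gene's strand, with every match to the 6 motifs on either strand in capitals, are GTF2A2 and POLR2F, which fell in every alternative and hold the ETS core, and POLR2A and MED1, which both antibody comparisons measured. GTF2A2 lies at chr15:59657516-59657765 (minus strand), where the capitals are 2 GC boxes and an ETS core read on the other strand. POLR2F lies at chr22:37953449-37953698 (plus strand), with overlapping NRF1 cores and an ETS core. POLR2A lies at chr17:7484116-7484365 (plus strand), with 2 GC boxes, and MED1 at chr17:39451264-39451513 (minus strand), with a CCAAT box.
GTF2A2: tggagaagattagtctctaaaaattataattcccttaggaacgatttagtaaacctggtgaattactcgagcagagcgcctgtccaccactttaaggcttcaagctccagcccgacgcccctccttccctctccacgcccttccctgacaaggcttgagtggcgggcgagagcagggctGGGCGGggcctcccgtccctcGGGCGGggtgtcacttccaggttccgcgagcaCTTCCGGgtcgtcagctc
POLR2F: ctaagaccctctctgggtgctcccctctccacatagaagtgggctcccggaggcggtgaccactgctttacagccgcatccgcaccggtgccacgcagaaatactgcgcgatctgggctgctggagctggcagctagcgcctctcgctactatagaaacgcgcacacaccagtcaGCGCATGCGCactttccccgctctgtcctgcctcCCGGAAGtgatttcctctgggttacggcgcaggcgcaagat
POLR2A: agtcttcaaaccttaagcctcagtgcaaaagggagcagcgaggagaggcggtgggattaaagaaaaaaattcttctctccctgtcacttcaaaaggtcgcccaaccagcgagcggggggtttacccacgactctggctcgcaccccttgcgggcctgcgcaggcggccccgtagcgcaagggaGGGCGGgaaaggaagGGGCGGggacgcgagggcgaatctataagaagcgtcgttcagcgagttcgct
MED1: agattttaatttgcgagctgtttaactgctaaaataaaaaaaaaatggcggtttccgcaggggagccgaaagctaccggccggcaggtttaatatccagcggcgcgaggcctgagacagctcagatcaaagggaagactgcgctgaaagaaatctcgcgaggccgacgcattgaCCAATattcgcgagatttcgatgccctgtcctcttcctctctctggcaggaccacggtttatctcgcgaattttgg

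The agonist table holds 4 of the members: POLR2A, MED1, GTF2E1 and MED28. Its 904 genes are a chosen list: 99.9% pass the test (55.6% higher, 44.2% lower), and the smallest log2 change in size is 0.12, whereas 23.1% of tested genes of the antagonist table lie within 0.1 of 0. Presence of a member there is therefore already a call, and the other 88 members were not analysed here for the agonist. Levels below are CPM over the listed genes' counts alone (listed CPM) and cannot be set beside the CPM above. Among listed genes 97.6% had groups that did not overlap, 53.4% higher and 44.1% lower.

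With the agonist 3 of the 4 members were lower. POLR2A had 812, 1078 and 1082 listed CPM with the agonist and 1322, 1311 and 1430 with IgG (-0.45 ± 0.09, adjusted p = 0.000964). MED1 had 158, 229 and 238 with the agonist and 331, 269 and 330 with IgG (-0.58 ± 0.14, adjusted p = 0.00205). Agonist library 1 was the lowest for both genes; without it the log2 change was -0.33 for POLR2A and -0.41 for MED1, still past the threshold. GTF2E1 had 123, 130 and 136 with the agonist and 186, 163 and 169 with IgG (-0.42 ± 0.10, adjusted p = 0.00174). In these 3 genes the groups did not overlap. Length and GC trends, here fitted on the listed genes alone, reduced the changes to -0.26 for POLR2A, -0.30 for MED1 and -0.27 for GTF2E1. MED28, a head subunit, was higher, at 508, 500 and 477 with the agonist and 430, 376 and 469 with IgG (0.22 ± 0.08, adjusted p = 0.0207). This call was lost with DESeq2 size factors (0.12, adjusted p = 0.175), without agonist library 2 (0.21, adjusted p = 0.0524) and without IgG library 2 (0.14, adjusted p = 0.113). With length and GC trends removed its value was 0.62.

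The difference between the antibody effects was tested as an interaction over the 867 genes that both tables share and that passed the filter, of which 58.9% were called. Each antibody has its own IgG libraries. The antagonist effect minus the agonist effect was 1.30 ± 0.15 for POLR2A (log2; adjusted p = 8.15e-06), which was higher than its IgG with the antagonist and lower with the agonist. For MED1 it was 0.62 ± 0.17 (adjusted p = 0.00512). MED1 was flat with the antagonist (0.04), and its place in the chosen agonist list already implied a change with the agonist. For GTF2E1, which was lower with both antibodies, the difference between the effects was 0.13 ± 0.12 (adjusted p = 0.377), so none was detected. For MED28 it was -0.32 ± 0.12 (adjusted p = 0.0249), and this call was lost with DESeq2 size factors (-0.21) or library totals (-0.23), and without IgG library 1 (-0.26) or antagonist library 1 (-0.31) of the antagonist experiment or IgG library 2 of the agonist experiment (-0.25). Antibody and experiment cannot be told apart in this design, and the 0 of the agonist table is set by its chosen genes.

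**Figure D4:**
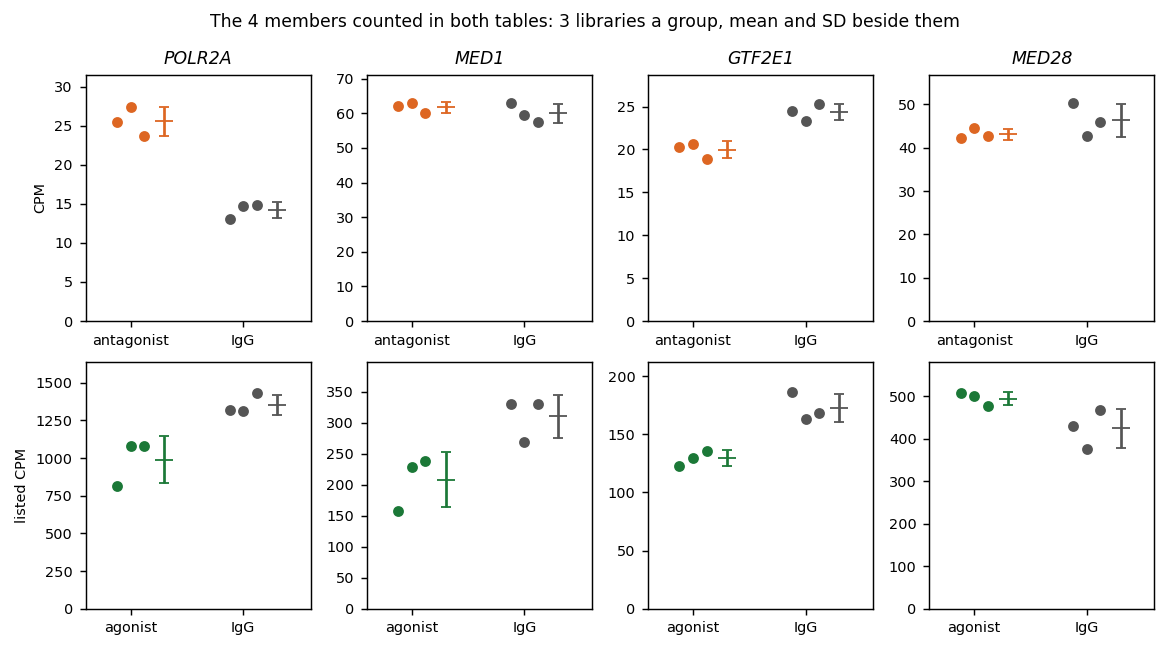
Level of the 4 members present in both tables: CPM in antagonist and IgG libraries (top row) and listed CPM (over the listed genes' counts) in agonist and IgG libraries (bottom row), with the antibody at left in each panel (points, 3 libraries; bar, mean and SD). POLR2A lies above its IgG in the top row (23.7 to 27.5 against 13.0 to 14.9 CPM) and below it in the bottom row (812 to 1082 against 1311 to 1430 listed CPM).

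The level of POLR2A itself differed between the tables. It had 447, 498 and 431 counts in antagonist libraries and 242, 249 and 243 in their IgG libraries, but 2779, 3404 and 3664 counts in agonist libraries and 4379, 3664 and 4549 in theirs, although the agonist table holds fewer counts in all. In CPM over the genes that both tables share, the summed IgG libraries of the agonist experiment had 1363 and those of the antagonist experiment 93.0, a ratio of 14.7. That ratio ranked 35 of 897 shared genes, whose median was 1.05 with the central 90% between 0.25 and 9.87. The ratio was 1.41 for MED28, 1.09 for GTF2E1 and 0.80 for MED1. The tables were normalized separately, and why POLR2A differs between them was not tested.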

How the data were processed

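Raw counts of reads per gene were deposited by the authors as 2 tables, one for the antagonist with its IgG and one for the agonist with its IgG. HISAT2, Cufflinks and the hg38 build are named in the submitters' processing notes; the sources used here give no versions, counting tool or strand use. Members, role lists and partner lists were chosen with earlier results of these data known. Named genes were the leading polymerase, Mediator, TFIID and kinase genes, plus up to 3 rises and 3 falls of largest size per role, 2 and 2 per partner list, and each member of the agonist table; other members are given by counts or were named after their values were seen. A few genes that this rule or the marker lists name are not reported here. Rows without a symbol (0.103% of antagonist counts, 0.0726% of IgG counts) were left out of library sizes and tests. Table columns carry no replicate number.

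Each table was filtered (filterByExpr, minimum count 10, minimum total count 15), scaled by TMM, and tested with edgeR 4.0.16 (quasi-likelihood, robust; R 4.3.3), antagonist or agonist against its own IgG, with Benjamini-Hochberg adjustment over all genes tested at a threshold of 0.05. CPM values are TMM-scaled. The antibody effects were compared in 1 fit over the shared genes, with a term for the experiment. DESeq2 1.42.0, its size factors, library totals, no filter, a stricter filter (50 counts in 3 libraries), length and GC trends (loess, span 0.5) removed, and leaving out each library were the alternatives. The length and GC trends were fitted to counts scaled by library totals and used together with the TMM factors. The overall shift between libraries was therefore removed again in that setting. The code was tested on simulated data. Transcript length, GC content and 50-base windows shared between genes came from GENCODE 29 transcripts. Counting intervals cover counting error only, since no molecular identifiers are given.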

Additional observations from a re-analysis of the deposited data

Results flagged for a closer look

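The antagonist effect minus the agonist effect (log2) was tested as an interaction over the shared genes. It passed the threshold for 3 of the 4 members present in both tables, and these 3 are given here for that reason. Of the 867 shared genes tested, 58.9% passed too. The agonist list is chosen, and 99.9% of it passed the agonist test. The count of 3 of 4 therefore says nothing particular about the members. The difference was 1.30 for POLR2A, 0.62 for MED1 and -0.32 for MED28. For POLR2A it ran from 1.18 to 1.41 over the alternatives, each past the threshold, and for MED1 from 0.45 to 0.73, each past the threshold. For MED28 it ran from -0.40 to -0.21, with the call lost in 5 of 14 alternatives.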

How the results depend on the processing

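With library totals in place of TMM factors, 11 members were lower in place of 28, and 3022 genes in all were higher and 1597 lower, in place of 2147 and 2831; the median log2 change of all genes was 0.07 in place of -0.01. With length and GC trends removed, 4291 genes in all were lower, and the median was -0.09. The overall shift between libraries was removed again there, which bears on every value given for that setting. Leaving out 1 library at a time gave 7 to 17 members higher and 12 to 26 lower, 1374 to 2474 genes in all higher and 1769 to 2601 lower, and 0 to 1 members higher with the agonist; these fits have fewer libraries. MED28, the 1 member higher with the agonist, was no longer called with DESeq2 size factors or DESeq2's own test, which left 0; edgeR gave it an unadjusted p of 0.0199. DESeq2's test called 12 members higher and 19 lower with the antagonist. Genes below the threshold in the reported fit changed sign in some settings: with length and GC trends removed MED1 (-0.089), MED13 (-0.0016), CDK13 (-0.13), CCNT1 (-0.030) and SUPT5H (-0.078); with library totals CDK9 (0.030) and SUPT6H (0.074); without a filter CCNT2 (-0.0012); and SUPT6H also with DESeq2 size factors (0.012), DESeq2's test (0.0052) and the stricter filter (0.016). With 1 library left out, the values ran from -0.035 to 0.12 for CCNT1, from -0.042 to 0.091 for CCNT2 and from -0.041 to 0.052 for SUPT6H. The causes were not tested. No paired analysis was possible because the columns of the tables carry no replicate number.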
